A study of Homo sapiens with 6 samples.

Results

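The albumin gene family is a set of secreted plasma carriers descended from a common ancestor, with 4 human genes described here: ALB (albumin), AFP (alpha-fetoprotein), AFM (afamin) and GC (vitamin D-binding protein). They were chosen by name, together with GPC3 (glypican 3), a cell-surface proteoglycan used with AFP as a hepatoma marker. Earlier results of these data were known when the genes were chosen. Of these 5 genes, 4 were found among the 34234 genes of the count table, and GPC3 was not analysed here. RNA came from HCCLM3, a human hepatocellular carcinoma line of high metastatic potential, and was measured by poly-A RNA sequencing. Cells had received a lentivirus with a short hairpin RNA, either a control one (shcontrol, 3 libraries) or one against ATXN7L3 (shATXN7L3, 3 libraries), and all came from the same line in the same medium. The labels name 1 hairpin treatment against the target and do not give the interval between infection and harvest, nor whether the cells were pools or clones. Separate cultures are not stated for the replicates either. The p-values therefore reflect how these libraries vary, and that variation may be technical.

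ALB, AFP, AFM and GC are expressed in hepatocytes. Albumin carries fatty acids and hormones and keeps the osmotic pressure of plasma. AFP is the dominant plasma protein of fetal liver and yolk sac, is silenced in the liver after birth, and is made again by many hepatocellular carcinomas. Afamin binds vitamin E and Wnt proteins, and GC carries vitamin D metabolites and actin. The adaptor ATXN7L3 belongs to the deubiquitinase module of the SAGA coactivator, which removes ubiquitin from histone H2B.

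ALB, AFP and AFM stand next to each other on chromosome 4 on the plus strand (GRCh38). In the deposited counts ALB runs from 73397114 to 73421412, AFP from 73431138 to 73456174 and AFM from 73481683 to 73504001. Between the principal transcripts of GENCODE 29, 14.8 kb separated ALB from AFP and 25.5 kb separated AFP from AFM. GC lies 1619.9 kb from ALB on the minus strand, from 71741693 to 71804041. The principal transcripts of ALB, AFP and AFM each have 15 exons, and that of GC has 13. No exon base of the 4 genes overlapped another gene of the table on either strand. No stretch of 50 bases in their principal transcripts occurred in a GENCODE 29 transcript of another gene. Stretches of that length from these transcripts could thus be told apart. The read length of the libraries and exons outside the principal transcripts were not checked.

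The promoters of the 3 adjacent genes are shown, the only members for which a promoter sequence was matched. Each runs from 250 bases before to 50 bases after the RefSeq start (GRCh38.p14, plus strand), at chr4:73404037-73404336 for ALB, chr4:73435971-73436270 for AFP and chr4:73481495-73481794 for AFM. Capitals mark 4 short words searched on both strands: the TATA box TATAAA, the CCAAT box CCAAT, the forkhead (HNF3) core TGTTTNC and TTGCNNAA of C/EBP sites.
ALB: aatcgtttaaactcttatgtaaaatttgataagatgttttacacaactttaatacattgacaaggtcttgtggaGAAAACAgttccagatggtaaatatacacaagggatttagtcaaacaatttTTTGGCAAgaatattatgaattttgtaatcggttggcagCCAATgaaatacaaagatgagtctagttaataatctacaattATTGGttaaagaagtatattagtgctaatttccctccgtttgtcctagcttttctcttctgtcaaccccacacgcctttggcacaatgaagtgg
AFP: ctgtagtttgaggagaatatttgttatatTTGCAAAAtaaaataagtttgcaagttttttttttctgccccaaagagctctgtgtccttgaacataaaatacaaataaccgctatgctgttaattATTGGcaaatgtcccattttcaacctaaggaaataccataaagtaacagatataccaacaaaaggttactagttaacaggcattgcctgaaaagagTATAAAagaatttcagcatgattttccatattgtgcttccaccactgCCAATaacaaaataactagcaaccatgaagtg
AFM: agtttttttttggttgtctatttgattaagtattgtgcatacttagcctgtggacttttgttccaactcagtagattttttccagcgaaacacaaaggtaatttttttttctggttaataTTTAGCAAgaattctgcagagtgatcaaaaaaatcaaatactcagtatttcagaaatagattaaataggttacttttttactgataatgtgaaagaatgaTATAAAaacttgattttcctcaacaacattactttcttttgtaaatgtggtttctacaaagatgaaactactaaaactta

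The C/EBP word occurred in all 3 promoters, on the gene's strand in AFP and on the opposite strand in ALB and AFM. Its first base lay 125 bases before the start in ALB, 221 in AFP and 130 in AFM, and 10.46% of all 35116 promoters of this length held the word on either strand. TATAAA began 29 bases before the start in AFP and 30 bases before it in AFM, and ALB held no such letters in the window (11.53% of all promoters did). CCAAT occurred on both strands in ALB and AFP, and not in AFM (34.61% of all promoters). In ALB it lay 86 bases before the start on the gene's strand and 44 before it on the opposite strand. In AFP the copy on the opposite strand lay 125 bases before the start, and that on the gene's strand lay 18 bases after it. The forkhead core occurred in ALB alone of the 3 (17.99% of all promoters). These windows were poor in G and C, at 33.3% in ALB, 33.0% in AFP and 27.7% in AFM, against a median of 58.7% over all promoters. The shares of promoters holding each word were not matched for this content, so they are only a rough comparison. A match is a description of letters and not evidence of a bound factor.

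**Figure D1:**
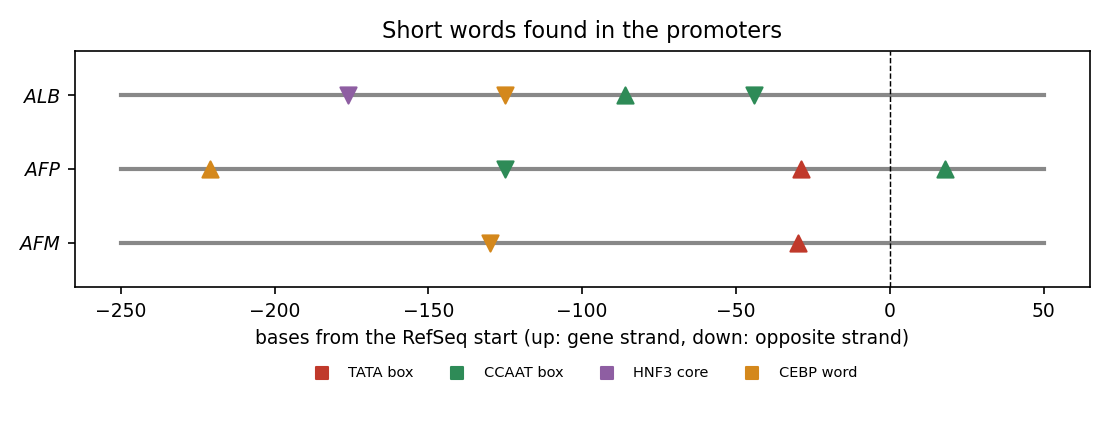
Position of each short word in the ALB, AFP and AFM promoters, in bases from the RefSeq start (dashed line), with upward marks for the gene's strand and downward marks for the opposite strand. The C/EBP word lies 125, 221 and 130 bases before the start of ALB, AFP and AFM.

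Library totals ran from 22376867 to 23915783 counts, and mitochondrial transcripts took 21.7% to 22.9% of them. Levels are given as CPM, a gene's count relative to its library total after TMM scaling, which corrects for composition. The target was lower in every knockdown library: ATXN7L3 stood at 36.3, 37.4 and 37.4 CPM in shcontrol and at 20.6, 20.5 and 19.4 CPM in shATXN7L3. The knockdown thus left 54.5% of its mRNA (log2 fold change -0.88 ± 0.056, edgeR adjusted p = 6.69e-10). Across all 17935 genes tested, 12.0% fell and 12.2% rose at an adjusted p under 0.05 (2150 and 2182 genes). Under plain library-size scaling those counts became 1604 lower and 2958 higher. Every count of calls below is read against those shares. The gene lists were chosen with earlier results of these data known, so a list's share beside the background is a description and not independent support.

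Of the 4 family members with counts, 3 passed the filter on low counts and were tested. ALB, the most abundant, fell to 37.0% of its control level, AFM fell to 38.6% and AFP to 70.0%. GC was close to silent in both groups. In each of the 3 tested genes the highest knockdown library lay below the lowest control library, as was the case in 18.4% of all tested genes, while 38.3% did not overlap in either direction. AFM passed the filter through its shcontrol libraries alone, so it had to be lower in the knockdown to be tested in this way, and the number of members that fell is not used as support. In such bulk RNA, fewer cells making a transcript and less transcript per cell cannot be told apart.

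Albumin is the main protein product of the mature hepatocyte. ALB was counted 1423, 1438 and 1505 times in the shcontrol libraries and 591, 568 and 557 times in the shATXN7L3 libraries. This corresponds to 63.2, 66.1 and 66.0 CPM against 25.4, 23.5 and 23.3 CPM. The gap between the groups was far wider than the spread within either. The means were 65.1 ± 1.68 and 24.1 ± 1.15 CPM (SD, n = 3 each), a log2 fold change of -1.44 ± 0.054 (SE; adjusted p = 3.27e-13 by edgeR), or 2.71-fold lower. Only 0.474% of tested genes had a lower log2 fold change. ALB kept its call in all 15 alternative settings, with log2 fold changes from -1.47 to -1.39.

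Alpha-fetoprotein, the fetal counterpart and serum tumour marker, was scarce in these cells. AFP had 63, 60 and 72 counts in shcontrol and 55, 44 and 46 in shATXN7L3. The CPM values were 2.80, 2.76 and 3.16 against 2.36, 1.82 and 1.92, so the groups were apart but close. The means were 2.905 ± 0.222 and 2.04 ± 0.287 CPM (SD, n = 3 each), with a log2 fold change of -0.51 ± 0.16 (adjusted p = 0.0260 by edgeR). Over the pooled counts (195 and 145), the knockdown held 69.9% of the control level, with an exact 95% interval from 56.0% to 87.1% that covers counting error only. The call was not firm. It ended with DESeq2 (adjusted p = 0.113) and in edgeR without shcontrol replicate 3 (0.0765), shATXN7L3 replicate 2 (0.110) or shATXN7L3 replicate 3 (0.0915).

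Afamin was rarer still. AFM had 20, 18 and 21 counts in shcontrol and 8, 9 and 7 in shATXN7L3. Its level was 0.888, 0.828 and 0.922 CPM in shcontrol and 0.344, 0.373 and 0.293 CPM in shATXN7L3, and all control libraries lay well above all knockdown libraries. The log2 fold change was -1.37 ± 0.30 (edgeR adjusted p = 0.00214). The pooled counts of 59 and 24 gave 38.2% of the control level, with an exact 95% interval from 22.8% to 62.4% for counting error. The call held in the 14 alternatives that tested the gene, with adjusted p from 0.00101 to 0.0244. Where the filter on low counts was kept, AFM had to be lower to be tested, so that agreement adds no support. With no filter the edgeR adjusted p was 0.00101. At a filter of 1 CPM in 3 libraries it was not tested.

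GC, the vitamin D carrier, had a single count in shcontrol replicate 2 and 0 counts in the other 5 libraries. With 0 counts over the 3 shATXN7L3 libraries, an exact 95% interval reaches 0.0517 CPM. With 1 count in shcontrol, an exact 95% interval reaches 0.0831 CPM there. Both groups held fewer than 3 counts, so no fold was computed.

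**Figure D2:**
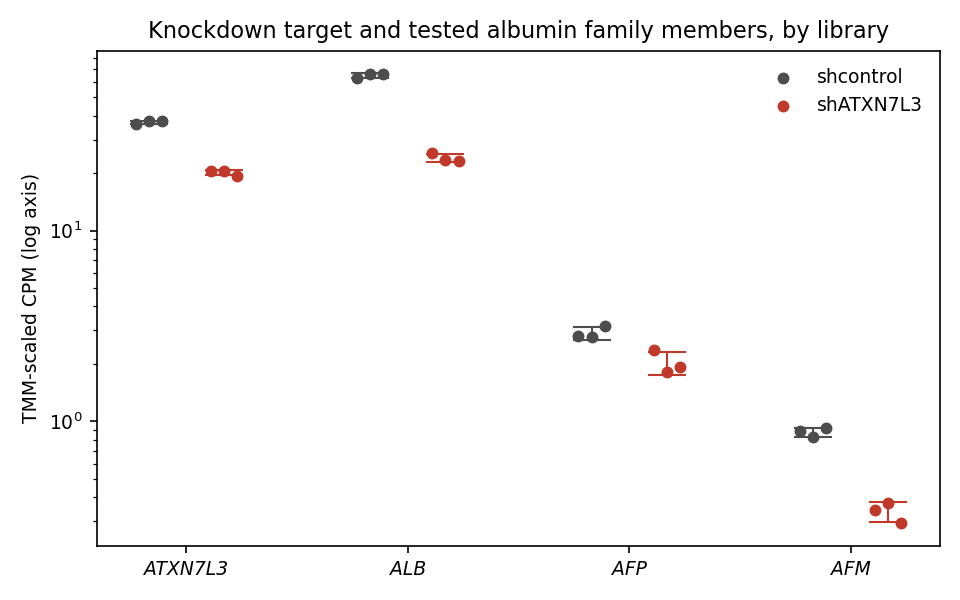
TMM-scaled CPM (log axis) of ATXN7L3, ALB, AFP and AFM in each library, with the mean and SD of each group of 3. ALB lies at 63.2 to 66.1 CPM in shcontrol and 23.3 to 25.4 CPM in shATXN7L3, while AFP lies at 2.76 to 3.16 and 1.82 to 2.36 CPM.

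Levels of different genes were compared per kilobase of exon (RPKM, from the deposited exonic length). ALB stood at 19.3 ± 0.498 RPKM in shcontrol, above 88.3% of tested genes, and at 7.13 ± 0.340 RPKM in shATXN7L3, above 70.2%. AFP stood at 0.891 ± 0.0680 and 0.625 ± 0.0881 RPKM. AFM stood at 0.392 ± 0.0212 and 0.150 ± 0.0181 RPKM (SD, n = 3 each). The order ALB, AFP, AFM, GC was the same in all 6 libraries, and no library of one tested member overlapped those of the next. The deposited length of ALB, 3377 bases, counts exons beyond the 2263 bases of its principal transcript, so its RPKM is a low estimate.

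Set among 15 other plasma protein genes of the hepatocyte that were tested, ALB ranked 5 of 18 by RPKM in shcontrol and 4 in shATXN7L3. Above it in shcontrol stood ITIH2 (114 RPKM), FGB (32.8 RPKM), APOH (24.4 RPKM) and TF (23.98 RPKM). The control libraries of ALB (18.7 to 19.6 RPKM) did not overlap those of TF (21.6 to 26.3 RPKM). This order holds for the deposited lengths. At the 2263 bases of its principal transcript ALB would stand at 28.8 RPKM in shcontrol and rank 3, and at 10.6 RPKM in shATXN7L3 and rank 4. Only ALB was shortened there. The other genes kept their deposited lengths, so these ranks compare unlike lengths and do not correct the order. AFP ranked 14 in both groups, and AFM ranked 16 and 17. Ordered by log2 fold change from the lowest, ALB was number 4 of the 18, AFM number 5 and AFP number 14.

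Ratios between members within a library do not depend on scaling, and 3 pairs were compared. There were 22.6, 23.97 and 20.9 ALB counts per AFP count in the shcontrol libraries and 10.7, 12.9 and 12.1 in the shATXN7L3 libraries. Every knockdown ratio lay below every control ratio, and the log2 ratio differed by -0.93 at a prior count of 2. AFP counts per AFM count went from 3.15, 3.33 and 3.43 to 6.875, 4.89 and 6.57, without overlap. The log2 ratio of this pair differed by 0.69 at a prior count of 2, by 0.82 at 0.5 and by 0.51 at 5. ALB counts per AFM count were 71.15, 79.9 and 71.7 in shcontrol and 73.9, 63.1 and 79.6 in shATXN7L3, and overlapped. At a prior count of 2 the log2 ratio of ALB to AFM differed by -0.24, and at 0.5 by -0.10 (exact permutation p = 0.5), so its difference depended on the added count. The two-sided exact permutation test gave p = 0.1 for each of the 3 pairs at a prior count of 2, and 0.1 after adjustment over them. That is the smallest value this test can give with 3 against 3 libraries, so it could not pass 0.05 for any pair. AFM entered these pairs through the filter on low counts, which it passed in its shcontrol libraries alone. Ratios with AFM were thus tilted towards low AFM in the knockdown, and their differences are not used as support.

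**Figure D3:**
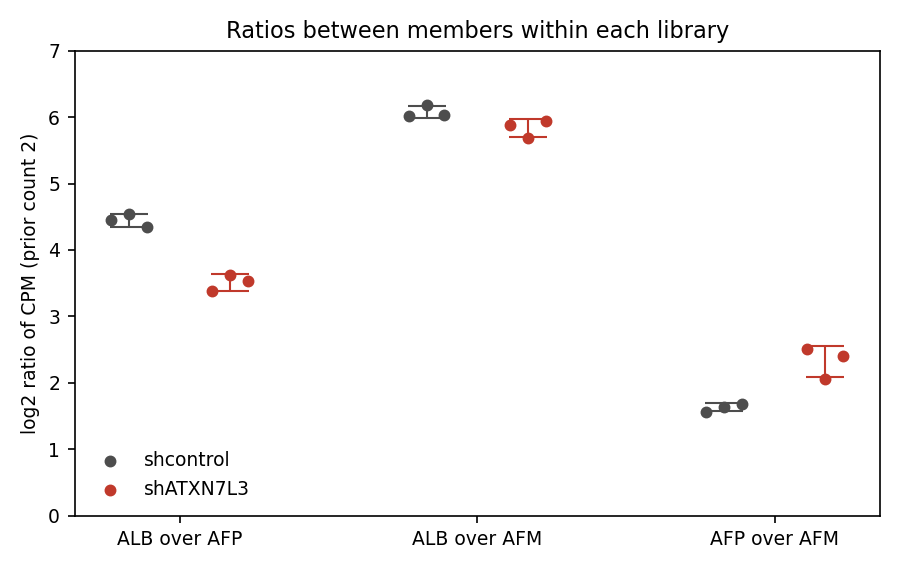
Log2 ratio of CPM between members in each library (prior count 2), with the mean and SD of each group of 3. The ratio of ALB to AFP went from 4.45 to 3.52 and that of AFP to AFM from 1.63 to 2.32, while that of ALB to AFM moved by -0.24. AFM passed the filter on low counts through its shcontrol libraries alone.

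Other plasma proteins made by hepatocytes fell in 11 of 15 tested genes and rose in 0 (background 12.0% lower), with a median log2 fold change of -0.75 against 0.01 over all tested genes. This list was drawn up with earlier results of these data known, so its share is not independent of them. The iron carrier TF fell from 205 ± 20.1 to 35.8 ± 0.912 CPM, the protease inhibitor SERPINA1 from 18.5 ± 1.88 to 5.33 ± 0.674 CPM, and the inhibitor precursor AMBP from 25.7 ± 1.78 to 11.4 ± 0.295 CPM. ITIH2 also fell (-0.75 ± 0.043, edgeR adjusted p = 1.41e-10). The retinol carrier RBP4 did not pass (0.11 ± 0.12), nor did AHSG, ORM1 and ORM2, whose log2 fold changes lay between -0.56 and -0.35. ORM1 and ORM2 are near-identical copies, so the split of reads between them is uncertain. Of 25 such genes with counts, 10 were too scarce to test, among them HP, PLG and APOA2. TF overlaps exon bases of the pseudogene TFP1 on its strand, so reads from the shared bases could belong to either. The extent of that overlap was not measured. The call of TTR (-1.22) ended with DESeq2 (adjusted p = 0.0926) and in edgeR without 1 of 4 libraries, shcontrol replicate 1 or 3 or shATXN7L3 replicate 1 or 3 (0.0651 to 0.153).

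Transcription factors known to act on the albumin cluster fell in 5 of 24 tested genes and rose in 1 (background 12.0% lower and 12.2% higher), and their median log2 fold change was -0.04. HNF4A, a nuclear receptor that drives hepatocyte genes, stood at 44.6, 40.8 and 45.0 CPM in shcontrol and at 33.3, 33.4 and 33.5 CPM in shATXN7L3. It fell without overlap (log2 fold change -0.38 ± 0.054, edgeR adjusted p = 2.92e-05). CEBPA, a leucine zipper factor that binds the albumin promoter, fell from 33.4 ± 3.14 to 24.7 ± 1.56 CPM (-0.44 ± 0.069, adjusted p = 8.80e-05 by edgeR). NR2F2, an orphan nuclear receptor, fell from 67.8 ± 2.06 to 52.5 ± 1.23 CPM (-0.37 ± 0.048). The forkhead factor FOXA3 fell from 2.21 to 1.35 CPM (-0.71 ± 0.20) and GATA6 from 20.9 to 17.4 CPM (-0.27 ± 0.068). These last calls were less firm. That of FOXA3 ended with DESeq2 (adjusted p = 0.0553) and without shcontrol replicate 2 (0.0597) or shATXN7L3 replicate 3 (0.0887), and that of GATA6 without shATXN7L3 replicate 3 (0.0528).

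NR5A2, a nuclear receptor that activates AFP in fetal liver, rose from 1.64, 1.47 and 1.27 CPM to 4.68, 4.14 and 4.01 CPM. Its log2 fold change was 1.55 ± 0.16 (edgeR adjusted p = 6.48e-07), and it was the 1 gene of this list that rose. The forkhead genes FOXA1 (-0.17 ± 0.063) and FOXA2 (-0.03 ± 0.078) did not pass. The repressors that silence AFP after birth did not pass: ZHX2 had a log2 fold change of 0.03 ± 0.098, ZBTB20 of 0.10 ± 0.082 and ZFHX3 of -0.04 ± 0.055. ZBTB20 was spread over 31.1, 39.7 and 43.5 CPM in the control libraries. ZHX2, ZBTB20, ZFHX3, FOXA1, FOXA2, FOXA3 and GATA6 are named here outside the rule for named genes, after their values were seen.

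**Figure D4:**
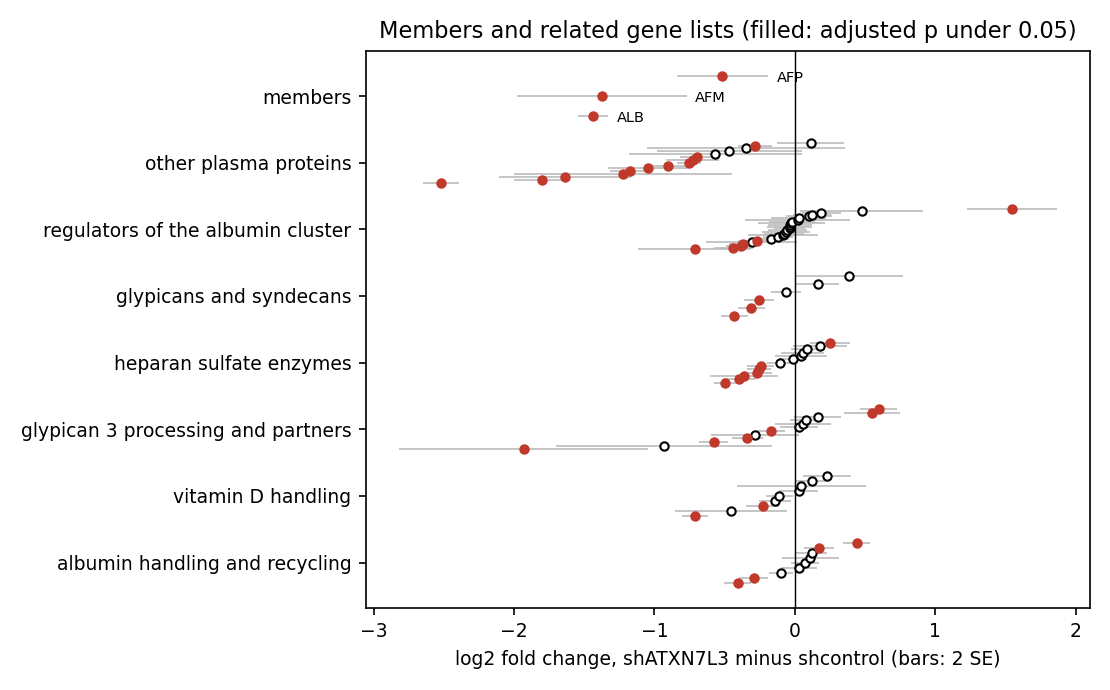
Log2 fold change (shATXN7L3 minus shcontrol) of each tested gene in the member set and 7 related lists, with bars of 2 SE and filled points for an edgeR adjusted p under 0.05. ALB (-1.44) and AFM (-1.37) lie among the lower plasma proteins, and NR5A2 (1.55) is the far right point of the regulators.

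Glypicans are heparan sulfate proteoglycans held at the cell surface by a lipid anchor, where they bind Wnt, hedgehog and fibroblast growth factor ligands. GPC3 is abundant in fetal liver and in many hepatocellular carcinomas, and the syndecans are the transmembrane counterparts of the family. With GPC3 not analysed here, 6 other glypicans and syndecans were tested, of which 3 fell and 0 rose (median log2 fold change -0.16). GPC1 stood at 88.3, 81.4 and 81.2 CPM in shcontrol and at 60.9, 61.4 and 63.8 CPM in shATXN7L3, with no overlap. Its log2 fold change was -0.43 ± 0.049 (edgeR adjusted p = 2.06e-06). SDC1 fell from 204 ± 14.0 to 165 ± 2.74 CPM (-0.31 ± 0.049) and SDC4 from 160 ± 14.6 to 135 ± 1.12 CPM (-0.25 ± 0.054). GPC6, at 15.9 ± 1.69 and 17.9 ± 0.665 CPM, and GPC2, at 1.49 ± 0.195 and 1.95 ± 0.259 CPM, did not pass (log2 fold changes 0.16 ± 0.077 and 0.38 ± 0.19). GPC4, the neighbour of GPC3 on the X chromosome, and GPC5 each had 1 count in the 6 libraries together. GPC6, GPC2, GPC4 and GPC5 are named outside the rule, as the other members of the family.

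The enzymes that build and trim heparan sulfate fell in 6 of 13 tested genes and rose in 1 (median log2 fold change -0.11). SULF2, an extracellular sulfatase that edits heparan sulfate, fell from 248 ± 5.28 to 176 ± 2.31 CPM (-0.49 ± 0.042, adjusted p = 4.08e-08 by edgeR). The sulfotransferase HS6ST1 (-0.39 ± 0.060), the epimerase GLCE (-0.27 ± 0.052) and the chain polymerase EXT2 (-0.25 ± 0.043) fell as well, while its partner EXT1 did not pass (-0.01 ± 0.049). NDST1 and HS3ST1 completed the genes that fell and B3GAT3 was the 1 that rose (0.25 ± 0.071). The call of HS3ST1 (-0.36) ended in 6 of 15 alternative settings and that of B3GAT3 in 3.

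Genes listed under glypican 3 processing and its signalling partners went both ways, with 4 of 12 tested genes lower and 2 higher (median log2 fold change -0.07). LRP1, an endocytic receptor that takes up glypican 3 with hedgehog, fell from 258, 258 and 296 CPM to 181, 175 and 188 CPM (-0.58 ± 0.053, adjusted p = 1.03e-07 by edgeR). The Wnt receptor FZD7 fell from 33.6 ± 0.919 to 26.6 ± 0.786 CPM (-0.34 ± 0.055). NOTUM, a secreted hydrolase that acts on glypicans and Wnt proteins, fell from 0.659 ± 0.217 to 0.168 ± 0.110 CPM (-1.93 ± 0.44, adjusted p = 0.00307 by edgeR). NOTUM passed the filter on low counts through its shcontrol libraries alone, so it had to be lower to be tested, and its count among the 4 is no support. FURIN, the convertase that cleaves glypican 3 and proalbumin, had a log2 fold change of -0.17 ± 0.053, and its call ended in 5 of 15 alternative settings. The hedgehog receptor PTCH1 rose from 15.7 ± 0.930 to 23.9 ± 0.861 CPM (0.60 ± 0.066, adjusted p = 1.42e-06 by edgeR) and FGF2 from 5.62 ± 0.343 to 8.23 ± 0.394 CPM (0.55 ± 0.099). NOTUM and FURIN were named after their values were seen.

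Of 9 tested genes of vitamin D handling, the pathway served by GC, 2 fell and 0 rose (median log2 fold change -0.11). CYP24A1, the hydroxylase that inactivates vitamin D, fell from 296.6, 301.7 and 273 CPM to 175, 177 and 182 CPM (-0.71 ± 0.046, adjusted p = 8.80e-10 by edgeR). CYP27A1, a sterol hydroxylase, fell from 30.4 ± 1.55 to 26.0 ± 0.377 CPM (-0.23 ± 0.058). LRP2 and CUBN, the receptors that take up GC, were too scarce to test. Scaling by library size alone added 2 genes of this list that rose.

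Genes of albumin folding, uptake and recycling were lower in 2 of 9 tested cases and higher in 2 (median log2 fold change 0.07). CAV1, the coat protein of caveolae, rose from 2428 ± 174 to 3296 ± 18.5 CPM (0.44 ± 0.049, adjusted p = 1.54e-06 by edgeR). The disulfide isomerases P4HB (-0.40 ± 0.048) and PDIA3 (-0.29 ± 0.051) fell. ERO1A, which reoxidises P4HB, had a log2 fold change of 0.17 ± 0.054. Its call ended without shcontrol replicate 2 (edgeR adjusted p = 0.109) or shATXN7L3 replicate 3 (0.172). FCGRT, the receptor that returns albumin to the blood, did not pass (0.03 ± 0.064). FCGRT, EXT1, LRP2, CUBN and the plasma proteins that did not pass are likewise named outside the rule.

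Among 12 further tumour markers of hepatocellular carcinoma, 5 fell and 3 rose (median log2 fold change 0.00). SPP1 (osteopontin) fell from 965 ± 40.6 to 496 ± 4.93 CPM (-0.96 ± 0.043), and GLUL (-0.19 ± 0.043) and SQSTM1 (-0.23 ± 0.043) fell by less. The guidance receptor ROBO1 rose from 67.5 ± 3.22 to 91.3 ± 2.22 CPM (0.44 ± 0.048, adjusted p = 1.56e-06 by edgeR). The calls of EZH2, DKK1 and KPNA2 ended in 4 to 7 of 15 alternative settings, and that of EPCAM in 2 of the 14 that tested it.

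Whether the counts used strand is not given in the sources used here. CEBPA, SULF2, LRP1, PTCH1, FGF2, P4HB, PDIA3, ERO1A, SQSTM1, NDST1 and GATA6 share exon bases with a gene on the opposite strand, whose reads could be mixed with theirs. The same holds for LRP4, CCT8P1, RP11-265N6.1, H19, IGF2, KRT7, LYZ and CD68, described below. IGF2 and CD68 also share exon bases with a gene on their own strand.

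Other genes around the albumin cluster were called in both directions. Within 1 Mb of the span from GC to AFM, 16 non-members were tested, of which 2 fell and 3 rose (median log2 fold change -0.01), shares of 12.5% and 18.75% beside a background of 12.0% and 12.2%. RASSF6, a RAS-association protein whose gene lies 167.3 kb beyond the RefSeq start of ALB, rose from 6.39, 9.47 and 8.47 CPM to 14.6, 14.5 and 14.3 CPM (0.83 ± 0.10, adjusted p = 4.95e-06 by edgeR). The neutrophil chemokine CXCL5, 591.4 kb beyond it, fell from 59.0 to 29.2 CPM (-1.02 ± 0.059, adjusted p = 1.81e-10 by edgeR). EREG, a ligand of the EGF receptor, rose from 38.5 to 45.9 CPM (0.25 ± 0.059). The calls of SLC4A4 (0.19) and CXCL3 (-0.77) ended in 4 and 5 of 15 alternative settings, DESeq2 among them (adjusted p = 0.0668 and 0.139), and CXCL3 is named outside the rule as the second gene that fell. ANKRD17 and COX18, which end short of ALB on its other side, did not pass (0.04 ± 0.049 and 0.14 ± 0.091). They were the tested genes between GC and ALB.

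**Figure D5:**
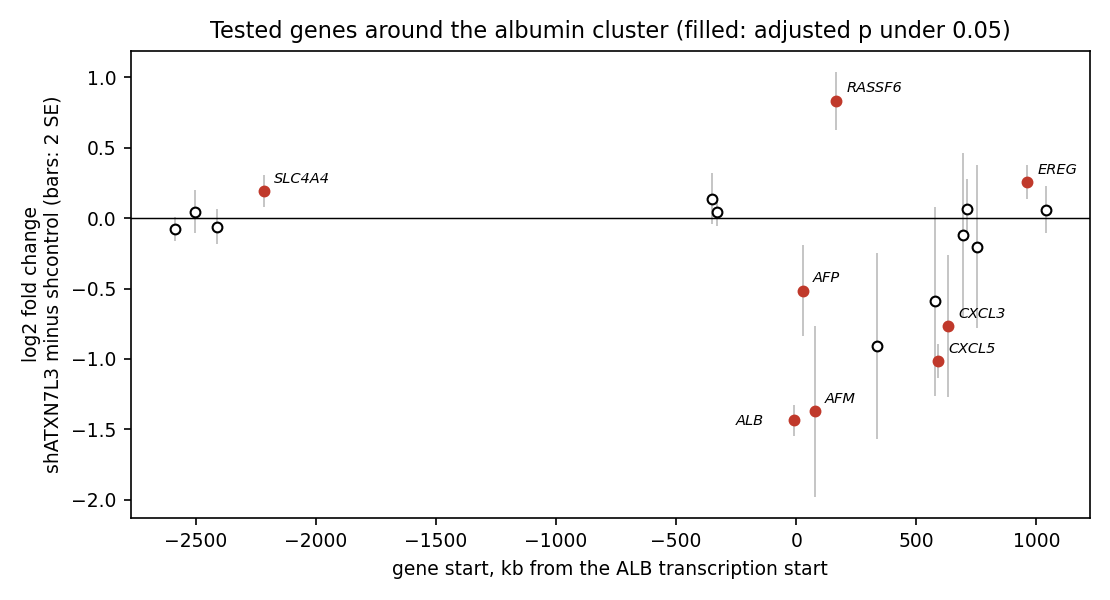
Log2 fold change (shATXN7L3 minus shcontrol, bars of 2 SE) of each tested gene within 1 Mb of the span from GC to AFM, against the distance of its left end from the RefSeq start of ALB in kb. ALB, AFP and AFM are negative, and RASSF6 at 167.3 kb is positive (0.83).

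GPC3 is annotated on the minus strand of chromosome X from 133535745 to 133985895 (GENCODE 29, GRCh38), and 5 other genes within 1 Mb of it were tested. MOSPD1 fell from 14.0 to 11.7 CPM (-0.27 ± 0.082, adjusted p = 0.0219 by edgeR), a call that ended in 5 of 15 alternative settings, and 0 rose. The noncoding gene RP3-417G15.1, which lies inside the span of GPC3 from 133670971 to 133671386, had 28 counts over the 6 libraries and was not tested.

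The genes whose log2 CPM followed each member most closely over the 6 libraries were found among 12306 genes. For ALB they were LRP4, TDG and the target ATXN7L3 (Pearson r = 1.00 each, Spearman rho 0.94 to 1.00). For AFM they were SERPINA1, CDK17 and TM9SF4 (r = 1.00 each). For AFP they were RP11-265N6.1, KCNK6 and CCT8P1 (r = 0.99 each). The values describe these libraries and carry no test: the 6 points form 2 groups, so any gene with a steady group difference ranks high, and 686 genes exceeded r = 0.95 with ALB.

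Marker genes moved in the same samples. The summed level of 9 hepatocyte markers, all of them with counts, ranged from 441 to 491 CPM in shcontrol and from 177 to 182 CPM in shATXN7L3. ALB is one of them, and without it the other 8 summed to 374 to 425 and 154 to 157 CPM. TF makes up much of it. Of the fetal liver markers other than AFP, H19 and IGF2 fell, H19 from 196 to 111 CPM and IGF2 from 6.53 to 2.75 CPM, while LIN28B was too scarce to test. Markers of cholangiocytes summed to 1015 to 1110 and 595 to 614 CPM, most of it SPP1, with KRT19 higher (0.40 ± 0.067) and KRT7 lower (-0.44 ± 0.097). Those of stellate cells and fibroblasts summed to 23.8 to 28.1 and 5.47 to 6.23 CPM, nearly all of it LUM, with COL1A2 and PDGFRB at 10 counts or fewer in all libraries together. Endothelial markers summed to 57.7 to 63.2 and 43.0 to 45.0 CPM and leukocyte markers to 90.1 to 109 and 120 to 125 CPM, with CDH5 and CD3E at 10 counts or fewer. PECAM1 (-0.64) and LYZ (-2.42) fell and CD68 (0.28) rose among them, though LYZ, like NOTUM, passed the filter through its shcontrol libraries alone. The part of any of these in the members' values was not tested.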

How the data were processed

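The 6 libraries of HCCLM3 cells fall into 3 shcontrol and 3 shATXN7L3, by the treatment label, and titles number the replicates. The authors deposited whole-number read counts for each gene. Tools listed in the submitters' processing notes are Trimmomatic 0.36, STAR 2.5.3a, Subread 1.5.1 (featureCounts) and edgeR 3.12.1, with the build GRCh38; the notes give no roles. The exonic length of each gene, an other column of the deposited table, gave RPKM. For annotation release, strand and multi-mapping, settings were not given in the sources used here.

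Genes passing filterByExpr (minimum count 10, minimum total 15) were TMM-scaled. Groups were compared in edgeR 4.0.16 (R 4.3.3) by its quasi-likelihood test, without covariates, and p-values were adjusted by Benjamini-Hochberg across the 17935 genes tested. SE is the log2 fold change divided by the square root of F, an approximation. The procedure was tested on simulated data. Alternatives used DESeq2 1.42.0, limma 3.58.1 (voom), other scalings and filters, a replicate block and each library left out.

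The members and lists were chosen with earlier results of these data known. Named genes are the members, ATXN7L3, up to 4 genes per list or window past the threshold with the smallest p, and the 3 genes most like each member in log2 CPM. Exon structure came from GENCODE 29 and promoters from RefSeq (GRCh38.p14), which matched 3 of the 5 members. GPC3 was not analysed here.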

Additional observations from a re-analysis of the deposited data

How the results depend on the processing

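ALB kept its direction and its call in all 15 alternatives, and AFM in the 14 that tested it. Apart from the fit with no filter, these could test AFM only if it was lower in the knockdown. AFP stayed lower in all 15, and lost its call with DESeq2 (log2 fold change -0.52, adjusted p = 0.113) and in 3 fits that each left out 1 library, where its value over the 6 such fits ran from -0.63 to -0.44. The ALB to AFM ratio differed by -0.10 at a prior count of 0.5 and by -0.44 at 5, because the added count weighs more on the rarer gene. DESeq2 called 1405 genes higher, against 2182 with edgeR. The main fit called 6 neighbours of the members, DESeq2 called 3, and fits without 1 library called 3 to 7. The cause of these changes in count was not tested. Of 71 genes followed through the alternatives, 53 kept their call in every setting that tested them, 18 lost it in at least 1 and 0 reversed. Same-numbered libraries did not deviate together (correlations -0.12, 0.0066 and 0.0998), and the fit with a replicate block called 4329 genes, against 4332 without it, with all 3 tested members still called. Depth limits AFM, at 7 to 21 counts per library, and GC, which could not be compared at this depth.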
